A study of Homo sapiens with 6 samples.

Results

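The baseline transcriptome of Huh-7, an established human hepatocellular carcinoma line, was described from its control libraries alone. They were chosen by their label as controls and make up 3 of the 6 libraries of the series. The other 3 came from the same line given an ALKBH5 expression plasmid and are not compared here. The control cells carry the genotype label WT and the treatment label Untreated, and they grew in DMEM with 10% fetal bovine serum. A treatment text on electroporation with an ALKBH5 plasmid and RNA extraction after 60 h stands beside the controls too, but in the series design they are parental cells. Whether the control cells were pulsed without plasmid, or got an empty one, is not stated in the labels. The libraries are numbered as biological replicates 1 to 3. Separate cultures are not stated, so every spread below is the spread between these 3 libraries, which may be technical.

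Hepatocytes make most of the proteins of blood plasma, such as albumin, apolipoproteins, clotting factors and complement, and they carry out ammonia disposal, drug oxidation and bile acid synthesis. A small set of transcription factors, with HNF4A, the FOXA proteins and CEBPA among them, is known to keep these genes active together. Hepatoma lines are known to retain the secretory programme more fully than the metabolic one, and to express fetal liver genes such as AFP, the fetal counterpart of albumin. Levels between genes are given in FPKM, a fragment count scaled by transcript length and library depth. A gene's FPKM is the sum over its transcripts. Levels are means ± SD over the 3 libraries unless values of single libraries are given, and no test between groups is made because 1 group is described.

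The libraries held 19265686, 19348109 and 19378030 estimated counts in replicates 1, 2 and 3. Of 18030 measured genes, 11655 (64.6%) reached at least 1 FPKM in every library, and 619 were listed at 0 in all of them. A count of 0 in a library allows up to 3 counts, or 0.156 CPM in replicate 1, for counting error only. The median of all genes was 4.24 FPKM. Abundance was concentrated in few genes: the 10 most abundant held 8.73% ± 0.113 of the summed FPKM, the 100 most abundant 31.2% ± 0.25 and the 1000 most abundant 65.7% ± 0.248. The leading 368 genes by mean held 50% of the summed FPKM, against 362, 375 and 368 when each library was counted alone. The 64 genes at 1000 FPKM or more held 25.4% ± 0.247, and the 5567 genes above 0 and under 1 FPKM together held 0.247% ± 0.00611.

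**Figure D1:**
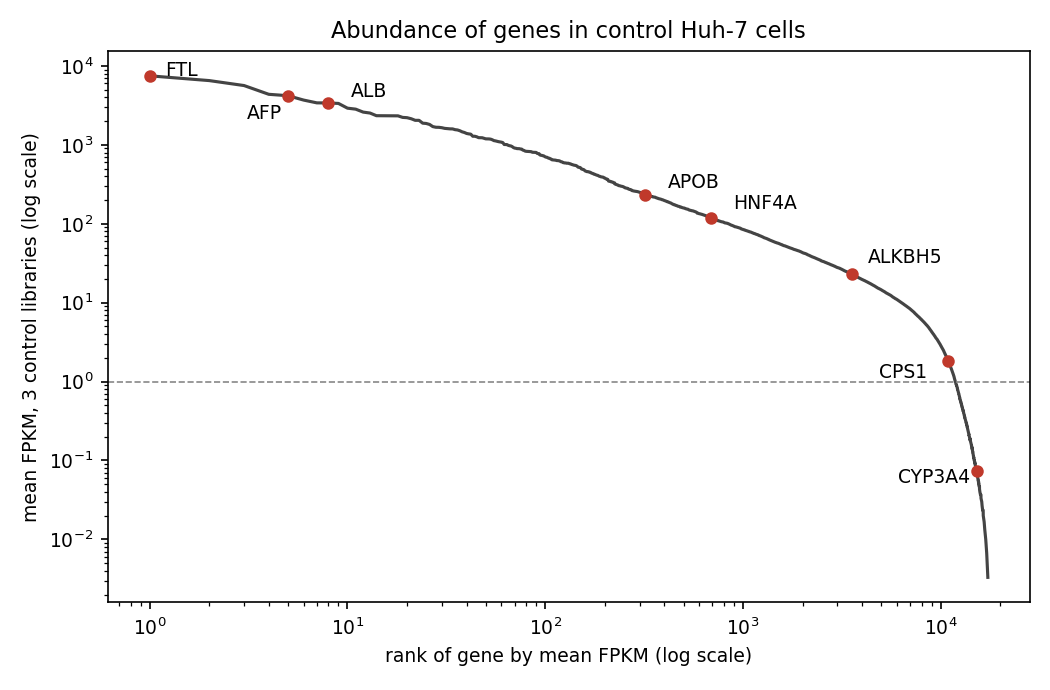
Mean FPKM over the 3 control libraries (vertical, log scale) against the rank of the gene (horizontal, log scale), with 8 genes marked by red points and a dashed line at 1 FPKM. FTL (7502 FPKM) stands at rank 1, AFP at rank 5 and ALB at rank 8, while CPS1 (1.85 FPKM) stands at rank 10864, above the dashed line, and CYP3A4 (0.0733 FPKM) at rank 15154, below it.

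The head of the list was held by iron storage, glutathione conjugation, plasma proteins and ribosomal proteins. FTL, the ferritin light chain, stood at 7795, 7352 and 7357 FPKM in replicates 1, 2 and 3. FTH1, the ferritin heavy chain and the ferroxidase of the shell, stood at 6631, 6455 and 6496 FPKM. GSTP1, a glutathione transferase that is known to be scarce in normal hepatocytes, stood at 5862, 5512 and 5567 FPKM. The lowest library of each of these genes lay above the highest library of the next, so ranks 1 to 3 did not overlap, and replicate 1 was the highest for all 3. The ferritin chains together held 2.72% ± 0.0517 of the summed FPKM. APOA2, a protein of high-density lipoprotein, followed at 4611, 4092 and 4419 FPKM, and AFP at 4115, 4246 and 4240. These overlapped, so the order of ranks 4 and 5 is not separated by the libraries. RPL41 (3697 FPKM), GAPDH (3408), ALB (3398) and RPS2 (3352) followed within the leading 10. GAPDH, ALB and RPS2 overlapped one another in their libraries.

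Among the 30 most abundant genes, 12 encoded cytosolic ribosomal proteins and 5 were secreted plasma proteins (APOA2, AFP, ALB, SERPINA1 and AMBP). The rest included the actin ACTB (2343 ± 26.0 FPKM) and the actin-binding proteins TMSB10 (2333 ± 79.4) and PFN1 (2143 ± 56.2). PPIA, a prolyl isomerase, stood at 2342 ± 17.9 FPKM and the elongation factor EEF1A1 at 2230.0 ± 44.6. FABP1, the fatty acid binding protein of hepatocytes, stood at 2211 ± 61.1 FPKM, and the simple-epithelial keratin KRT8 at 2047 ± 48.4. In 13 of the 30 the lowest library lay above the highest library of the next gene in rank. MTRNR2L2 stood at 2964, 2656 and 2889 FPKM and MTRNR2L8 at 1617, 1562 and 1678. The MTRNR2L genes are nuclear copies of the mitochondrial 16S ribosomal RNA, so which copy, or the mitochondrion, gave these reads cannot be told from the tables. The 10 measured members held 1.15% ± 0.0452 of the summed FPKM.

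**Figure D2:**
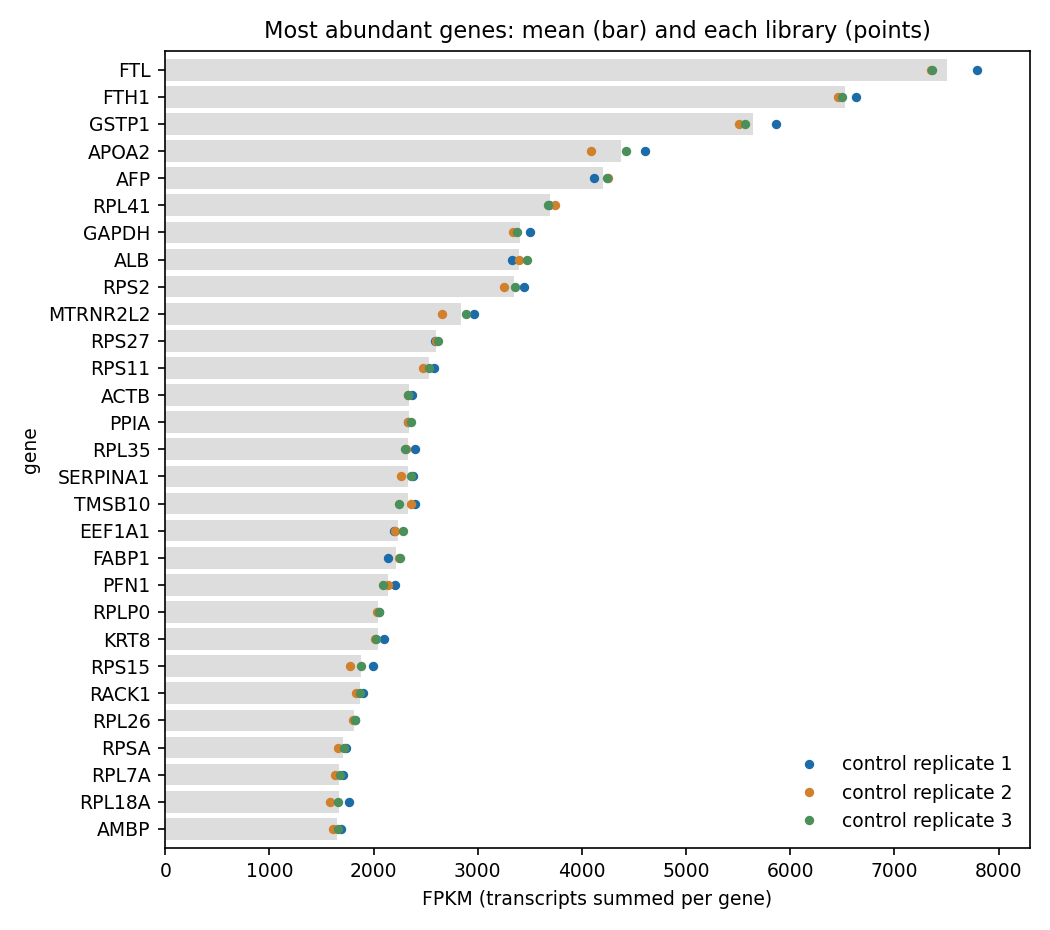
FPKM (horizontal) of 29 of the 30 most abundant genes, with bars for the mean of 3 control libraries and points for each replicate. FTL, FTH1 and GSTP1 lie above all other genes in every library, and the points of many lower neighbours interleave, such as ACTB, PPIA and RPL35.

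Unit mattered for this order. By CPM, counts scaled by library depth and not by length, AFP was the most abundant gene at 9985 CPM, ahead of EEF1A1 (7723), ALB (7598), FTH1 (7533) and FTL (6167). APOA2, rank 4 by FPKM, held rank 32 by CPM, and RPS27 moved from rank 12 to rank 127. Of the 30 leading genes by FPKM, 17 were among the leading 30 by CPM. The 100 most abundant genes by FPKM were short, with a median effective length of 824 nt as implied by counts and FPKM, against 2952 nt for the genes with a mean of at least 1 FPKM.

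All 77 cytosolic ribosomal protein genes had a mean of at least 100 FPKM, against 4.68% of all genes, and 33 reached 1000. Together they held 15.4% ± 0.0842 of the summed FPKM, with a median of 910 FPKM. By FPKM they spanned from RPL41 (3697 ± 37.3) to RPL14 (100.3 ± 1.63), which stood at 98.6, 100.4 and 101.9 in the libraries. RPL37 (132 ± 0.944), RPL37A (143 ± 1.94) and RPS23 (149 ± 2.87) were among the other members low by FPKM. Many of these genes have processed pseudogenes with which reads can be shared. The order changed without scaling by length. By CPM, RPL37 stood at 991 and RPL14 at 701, above RPS29 at 123, whereas RPS29 stood at 483 FPKM. Of the 100 most abundant genes, 50 were ribosomal proteins, 13 secreted plasma proteins, 6 translation factors, 4 metal and redox genes and 2 glycolytic genes.

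Ribosomal protein and elongation factor mRNAs are known for a start at a C followed by a run of pyrimidines, through which their translation responds to nutrients. The start sites are shown because this group held the largest share of the transcriptome of the groups described. Each line gives 10 bases before and 15 from the RefSeq start on GRCh38.p14, read 5′ to 3′, with the pyrimidines that run on from the start in capitals. The windows lie at chr12:56116623-56116647 (RPL41, plus strand), chr1:153990752-153990776 (RPS27, plus), chr9:124861943-124861967 (RPL35, minus), chr6:73521018-73521042 (EEF1A1, minus) and chr5:181243892-181243916 (RACK1, minus), then chr4:73404277-73404301 (ALB, plus), chr4:73436211-73436235 (AFP, plus) and chr19:48965299-48965323 (FTL, plus).
RPL41: cttcgcctttCTCTCggccttagcg
RPS27: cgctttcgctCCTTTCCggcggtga
RPL35: cgcctacttcCTCTTTCCCTCggag
EEF1A1: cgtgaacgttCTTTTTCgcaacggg
RACK1: gcttttctctCTCTCTTTCactgca
ALB: tccgtttgtcCTagcttttctcttc
AFP: gattttccatattgtgcttccacca
FTL: acgtcccctcgcagttcggcggtcc
RPL41, RPS27, RPL35, EEF1A1 and RACK1 begin with C and at least 4 more pyrimidines, whereas ALB has a run of 2 and AFP and FTL have none. Such a start, read on the coding strand alone, stood in 42 of 62 ribosomal protein genes with a matched promoter (67.7%). It stood in 5.50% of genes with a mean of at least 1 FPKM and 4.04% of all RefSeq promoters. Among secreted plasma proteins it stood in 1 of 20 matched genes at 100 FPKM or more and in 0 of 46 below.

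Of 23 translation factors, all 23 reached at least 1 FPKM, 21 reached 10 and 20 reached 100, with a median of 332 FPKM. The same levels were reached by 65.7%, 34.97% and 4.68% of all genes. RACK1, a scaffold of the small ribosomal subunit, stood at 1868 ± 35.3 FPKM, EEF1G at 1098 ± 6.49 and EEF2 at 897 ± 13.9. EIF4E, the cap-binding protein, stood far lower at 5.15, 5.26 and 5.19 FPKM, and EEF1A2, the muscle and neuron form of the elongation factor, at 4.22, 4.77 and 4.46.

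The secretory programme of the hepatocyte was broadly present. Of 94 measured genes for secreted plasma proteins, 83 had a mean of at least 1 FPKM, 37 at least 100 and 9 at least 1000. They held 6.17% ± 0.0665 of the summed FPKM, and their median was 53.9 FPKM against 4.24 for all genes. For comparison, 65.7% of all genes had a mean of at least 1 FPKM and 4.68% had at least 100.

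Apolipoproteins, which build and direct lipoprotein particles, reached at least 1 FPKM in 14 of 15 genes, against 65.7% of all genes. After APOA2 came APOE at 1606, 1501 and 1529 FPKM and APOC1 at 1147, 1109 and 1114. APOA1, the major structural protein of the same particles, stood at 836, 804 and 817 FPKM. Replicate 1 was the highest library for APOA2, APOE, APOC1 and APOA1. APOB, the scaffold of very-low-density lipoprotein, stood at 229, 240 and 233 FPKM with replicate 1 lowest. Neighbouring apolipoprotein genes differed widely. On chromosome 19, APOE (44905754 to 44909393), APOC1 (44914247 to 44919349) and APOC2 (44945982 to 44949565) stood at 1545, 1123 and 520 FPKM, while APOC4, between APOC1 and APOC2 (44942238 to 44945496), stood at 1.38 ± 0.361. On chromosome 11, APOA1 (819 FPKM) and APOC3 (197 ± 9.94) neighbour APOA4 (8.72 ± 0.466) and APOA5 (2.88 ± 0.374). Positions are from GENCODE release 29 on GRCh38. APOF was the lowest, at 0.13 ± 0.0346 FPKM.

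AFP and ALB, which lie next to each other on chromosome 4 of GRCh38 (AFP 73431138 to 73456174, ALB 73397114 to 73421412, both on the plus strand), were both among the 10 most abundant genes. ALB stood at 3327, 3397 and 3471 FPKM. AFP exceeded ALB 1.24-, 1.25- and 1.22-fold in replicates 1, 2 and 3, so AFP was higher in each library. AFM, afamin, the next gene of this cluster (73481683 to 73504001), stood at 0.450, 0.530 and 0.480 FPKM. The 100 bases before the RefSeq start are shown for AFP (chr4:73436121-73436220, plus strand), ALB (chr4:73404187-73404286, plus) and FGB, fibrinogen beta (chr4:154562880-154562979, plus), on GRCh38.p14, as the fetal and adult genes of the albumin family and the highest clotting gene. Capitals mark TATAAA in AFP, GTTAAT in ALB and ATTAAC, the reverse complement of GTTAAT, in FGB. TATAAA is the core of the TATA box, and GTTAAT is a motif known from hepatocyte promoters.
AFP: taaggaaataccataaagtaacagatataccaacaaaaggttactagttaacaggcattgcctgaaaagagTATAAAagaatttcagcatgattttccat
ALB: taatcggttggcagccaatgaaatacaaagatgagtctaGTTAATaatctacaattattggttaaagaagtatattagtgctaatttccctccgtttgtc
FGB: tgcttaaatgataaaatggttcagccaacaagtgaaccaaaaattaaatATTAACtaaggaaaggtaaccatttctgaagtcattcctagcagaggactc
Over windows of 300 bases and both strands, GTTAAT stood in 6 of 20 matched promoters of secreted genes at 100 FPKM or more, and in 11 of 46 of those below. It stood in 0 of 62 ribosomal protein promoters, 3.73% of genes with a mean of at least 1 FPKM and 6.89% of all RefSeq promoters. TATAAA stood in 4 of 20 and 9 of 46 of the secreted genes, 5 of 62 (8.06%) of ribosomal protein genes, 5.85% of genes with a mean of at least 1 FPKM and 12% of all promoters. GGGCGG, the core of the GC box, stood in 6 of 20 and 4 of 46 of the secreted genes, 34 of 62 (54.8%) of ribosomal protein genes, 70.2% of genes with a mean of at least 1 FPKM and 44.6% of all promoters. Motifs were counted separately and can overlap, and no difference between these shares was tested. These matches are letters in a window, and binding was not measured. Only 20 of the 37 abundant secreted genes had a promoter entry.

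Carriers and protease inhibitors reached at least 1 FPKM in 23 of 26 genes, against 65.7% of all genes. Their median was 140 FPKM. SERPINA1, alpha-1-antitrypsin, stood at 2376, 2268 and 2363 FPKM. AMBP, the precursor of alpha-1-microglobulin and bikunin, stood at 1686, 1609 and 1656, and RBP4, which carries retinol, at 1214, 1155 and 1197. VTN, vitronectin (1190.0 ± 42.6 FPKM), and TTR, transthyretin, which carries thyroxine (699 ± 16.4), were also high. TF, transferrin, stood lower by FPKM, at 115 ± 1.33. Of TF, 99.7% lay in NM_001063.4, which is matched to a GENCODE transcript of 20602 nt. FPKM is scaled by length, and how far this length set the value was not tested. ITIH2, a heavy chain of the inter-alpha-inhibitor, stood at 279.6 ± 4.19 FPKM, but ITIH1 stood at 2.43 ± 0.31 and ITIH3 at 0.99 ± 0.148. FETUB was the lowest of the list at 0.467 ± 0.0577.

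F9 was not analysed here. The clotting list reached at least 1 FPKM in 18 of 20 measured genes, against 65.7% of all genes. The fibrinogen chains led it and form one cluster on chromosome 4, with FGB (154562956 to 154571086) at 800, 837 and 829 FPKM. FGA (154583126 to 154590766) stood at 798, 808 and 804 and FGG (154604134 to 154612967) at 631, 649 and 655. FGB and FGA overlapped, and FGG lay below both in every library. F2, prothrombin, stood at 159 ± 2.23 FPKM and PROS1, protein S, at 99.3 ± 3.75. The contact factor F11 stood at 2.01 ± 0.343 FPKM, and HRG (0.81 ± 0.132) and KLKB1, prekallikrein (0.677 ± 0.231), were below 1.

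Complement genes reached at least 1 FPKM in 17 of 21, against 65.7% of all genes. CLU, clusterin (421 ± 14.3 FPKM), C3, the central component (313 ± 8.93), and the regulator CFI (203 ± 2.32) were the highest. C5 stood at 145 ± 3.29 FPKM, whereas C6 stood at 1.22 ± 0.151 and C9, which forms the pore, at 0.0133 ± 0.0115. C4B stood at 12.5 ± 0.478 FPKM with its near-identical neighbour C4A listed at 0, so their levels are uncertain one by one.

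Acute-phase proteins, which hepatocytes secrete on inflammatory signals, were uneven. ORM1, orosomucoid, stood at 736 ± 18.9 FPKM and ORM2 at 262 ± 2.52, but reads can be shared between these near-identical genes. SAA1, serum amyloid A, stood at 183, 180 and 181 FPKM and HAMP, the iron hormone hepcidin, at 153, 152 and 154. CRP, C-reactive protein, was the single member of 12 below 1 FPKM, at 0.340, 0.280 and 0.580. The other members reached at least 1 FPKM, against 65.7% of all genes.

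Transcription factors of hepatocyte identity reached at least 1 FPKM in 23 of 24 genes, against 65.7% of all genes. Their median was 17.5 FPKM. CEBPA stood at 211, 206 and 201 FPKM, HNF4A at 118, 120 and 118, and CEBPB at 119, 113 and 104. CEBPA lay above both in every library, and HNF4A and CEBPB overlapped. The pioneer factors FOXA2 (42.6 ± 1.86 FPKM), FOXA1 (38.7 ± 1.03) and FOXA3 (19.7 ± 0.374) and the bile acid receptor NR1H4 (53.2 ± 0.899) were also present. The xenobiotic receptors were low. NR1I2, which encodes PXR, stood at 2.85 ± 0.0961 FPKM, and NR1I3, which encodes CAR, at 1.04, 0.450 and 0.540.

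Oncofetal and progenitor genes, a list chosen for their known expression in fetal liver or liver cancer, reached at least 1 FPKM in 25 of 31 measured genes. The same level was reached by 65.7% of all genes. MDK, midkine, a heparin-binding growth factor, stood at 930, 905 and 848 FPKM. GPC3, glypican-3, a membrane proteoglycan, stood at 593, 580 and 597, and IGF2 at 585, 584 and 558. CD24 (526 ± 8.87 FPKM), the trypsin inhibitor SPINK1 (338 ± 10.1) and PEG10 (229.6 ± 3.11) followed. The IGF2 mRNA-binding proteins IGF2BP1 (43.8 ± 0.289), IGF2BP2 (25.6 ± 0.546) and IGF2BP3 (16.3 ± 0.331) were all present. LIN28B, which blocks let-7 maturation, stood at 26.1 ± 1.75 FPKM, and its paralogue LIN28A at 0.14 ± 0.0346. The cancer-testis genes MAGEA3 (0.25 ± 0.155), MAGEA1 (0.010 ± 0.0173) and MAGEC1 (0.00333 ± 0.00577) were below 1 FPKM, and MAGEA4 was listed at 0.

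**Figure D3:**
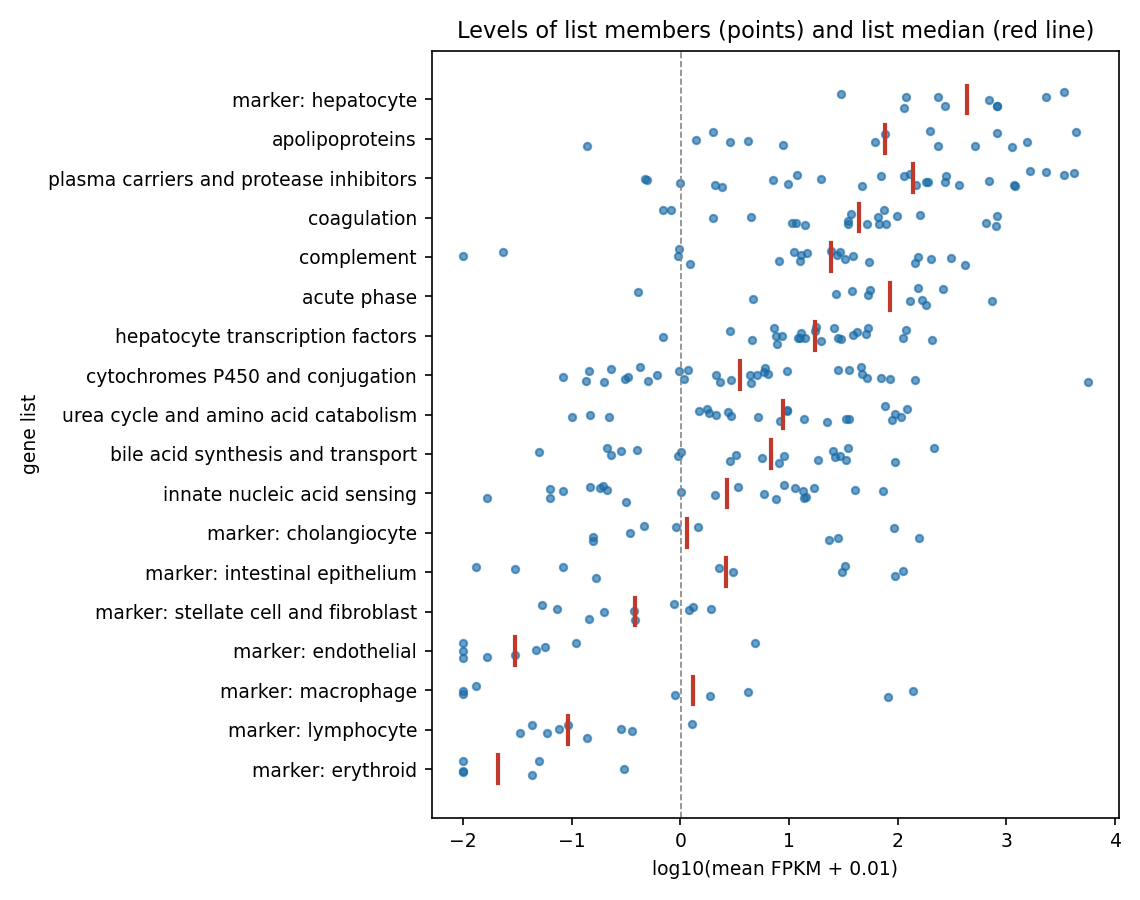
Mean level of each member (blue points) and list median (red lines) for 18 gene lists, on the scale log10(mean FPKM + 0.01) with a dashed line at 1 FPKM. Hepatocyte markers and secreted proteins lie mostly to the right of the line, P450 and bile acid genes straddle it, and most endothelial, lymphocyte and erythroid markers lie to its left.

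Drug metabolism was at a lower level than secretion. Of 32 cytochrome P450 and conjugation genes, 21 reached at least 1 FPKM, and the median was 3.65 FPKM. Both values lie near those of all genes (65.7% and 4.24 FPKM). Apart from GSTP1, the highest were GSTA1 (143 ± 4.34 FPKM), CYP1A1, an oxidase that the aryl hydrocarbon receptor induces (84.7 ± 1.65), and POR, the electron donor of the P450s (70.7 ± 0.835). CYP3A4, the main drug-oxidising P450 of adult liver, stood at 0.0900, 0.0700 and 0.0600 FPKM. CYP2E1, which oxidises ethanol, stood at 0.19 ± 0.030, and CYP1A2 at 0.303 ± 0.0681. CYP2B6 stood at 4.4 ± 0.232.

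Nitrogen and amino acid metabolism was split within the pathway. Of the urea cycle enzymes, ASS1 stood at 92.2, 87.1 and 88.0 FPKM and ASL at 77.4, 76.7 and 75.5, whereas CPS1, the entry enzyme, stood at 1.66, 2.01 and 1.87. OTC stood at 1.83, 1.67 and 1.77 FPKM, and ARG1, which releases urea, at 12.96, 15.4 and 13.1. The mitochondrial steps CPS1 and OTC thus stood lower than the cytosolic ones in every library. HGD, which degrades aromatic amino acids (123 ± 2.05 FPKM), and the glutamine synthetase GLUL (108 ± 0.070) were high, while TAT, the tyrosine aminotransferase, stood at 1.49 ± 0.136.

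Gluconeogenesis and glycogen genes reached at least 1 FPKM in 9 of 12, against 65.7% of all genes. PC, pyruvate carboxylase, stood at 88.6 ± 3.09 FPKM and the glycogen phosphorylase PYGL at 69.1 ± 1.44. The remaining 3 were PCK1, GYS2 and G6PC1, the liver forms of regulated steps, at 0.97 ± 0.145, 0.56 ± 0.0819 and 0.49 ± 0.115.

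Bile acid genes reached at least 1 FPKM in 14 of 20 measured genes, near the 65.7% of all genes; CYP7A1 was not analysed here. FGFR4, the receptor for FGF19, stood at 226, 212 and 216 FPKM, with its co-receptor KLB at 26.4 ± 0.62 and FGF19, an intestinal hormone in adults, at 18.6 ± 0.275. SLC10A1, the bile acid importer and hepatitis B virus receptor, stood at 0.270, 0.260 and 0.290 FPKM. ABCB11, the bile salt export pump, stood at 0.39 ± 0.10, and CYP7B1 at 0.040 ± 0.030.

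Lipid synthesis was present throughout. All 24 cholesterol synthesis genes were above 10 FPKM (median 46.3), against 34.97% of all genes at 10 FPKM or more. They were led by EBP (369 ± 7.48), a sterol isomerase, and FDPS (298 ± 4.56), which makes farnesyl pyrophosphate. All 27 fatty acid and lipid storage genes reached at least 1 FPKM (median 43.1), against 65.7% of all genes. FABP1 was first, then FADS2 (285 ± 4.77) and SCD (248 ± 4.97), which desaturate fatty acids. FASN stood at 77.7, 73.3 and 70.8 FPKM.

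Energy genes were high. All 37 measured nuclear genes of the respiratory chain reached at least 10 FPKM, against 34.97% of all genes. Their median was 213 FPKM, and they were led by ATP5F1B (666 ± 16.2), an ATP synthase subunit, and COX6B1 (610.0 ± 20.9). UQCRB was the lowest at 14.3 ± 0.11. Of 20 glycolytic genes, 17 reached at least 1 FPKM, against 65.7% of all genes. After GAPDH came ALDOA (823 ± 8.18), ENO1 (641 ± 4.82), TPI1 (632 ± 9.05) and LDHA (585 ± 17.9). LDHB, the other lactate dehydrogenase chain, stood at 0.750, 1.32 and 0.410 FPKM, and HK1 at 0.360, 0.510 and 0.180.

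Pairs of related enzymes and regulators were read side by side within each library. In most of the 20 pairs the second gene is the form known from adult liver. At least 1 member reached 1 FPKM in 19 pairs, and the first gene was the higher in 9 of them and the second in 10. In all 19 the libraries of the members did not overlap.

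The first gene was the higher in pairs from glycolysis, glucose release and methionine metabolism. PKM (433 ± 8.72 FPKM) exceeded the liver pyruvate kinase PKLR (5.14 ± 0.556) by 76.7- to 90.1-fold. MAT2A (103 ± 2.5 FPKM) exceeded the adult methionine adenosyltransferase MAT1A (5.23 ± 0.514) by 18.04- to 20.8-fold. The same order held for PCK2 (60.6 ± 1.26) over PCK1, G6PC3 (32.7 ± 0.908) over G6PC1 and GYS1 (29.4 ± 0.87) over GYS2. ACACA (9.81 ± 0.104) stood above ACACB (3.32 ± 0.00577), and GSTP1 stood above GSTA1 by 37.5- to 42.3-fold. IGF2 stood at 576 ± 15.1 FPKM and IGF1, the postnatal growth factor, at 0.180, 0.11 and 0.03, so that their ratio spread widely.

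The second gene was the higher in the other pairs, most of them with a liver form in that place. PFKL (64.5 ± 3.32 FPKM) stood above PFKP (0.473 ± 0.153), CPT1A (29.7 ± 0.445) above CPT1C (0.147 ± 0.0306) and SLC2A2 (21.5 ± 0.567) above SLC2A1 (9.85 ± 0.677). ARG1 (13.8 ± 1.4) stood above ARG2 (3.46 ± 0.188), PYGL above PYGB (20.99 ± 0.306) and FBP1 (3.5 ± 0.694) above FBP2 (0.617 ± 0.106). HNF4A (119 ± 1.52) stood above HNF4G (7.6 ± 1.02), and KHK (8.42 ± 0.212) above HK1. BCAT2 (26.5 ± 0.322), the mitochondrial branched-chain aminotransferase and not a liver form, stood above the cytosolic BCAT1 (5.67 ± 0.296). The keratin KRT18 (1367 ± 21.3) stood above the bile duct keratin KRT19 (92.8 ± 1.8). For CYP3A7 (0.417 ± 0.21) and CYP3A4, both members were below 1 FPKM.

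**Figure D4:**
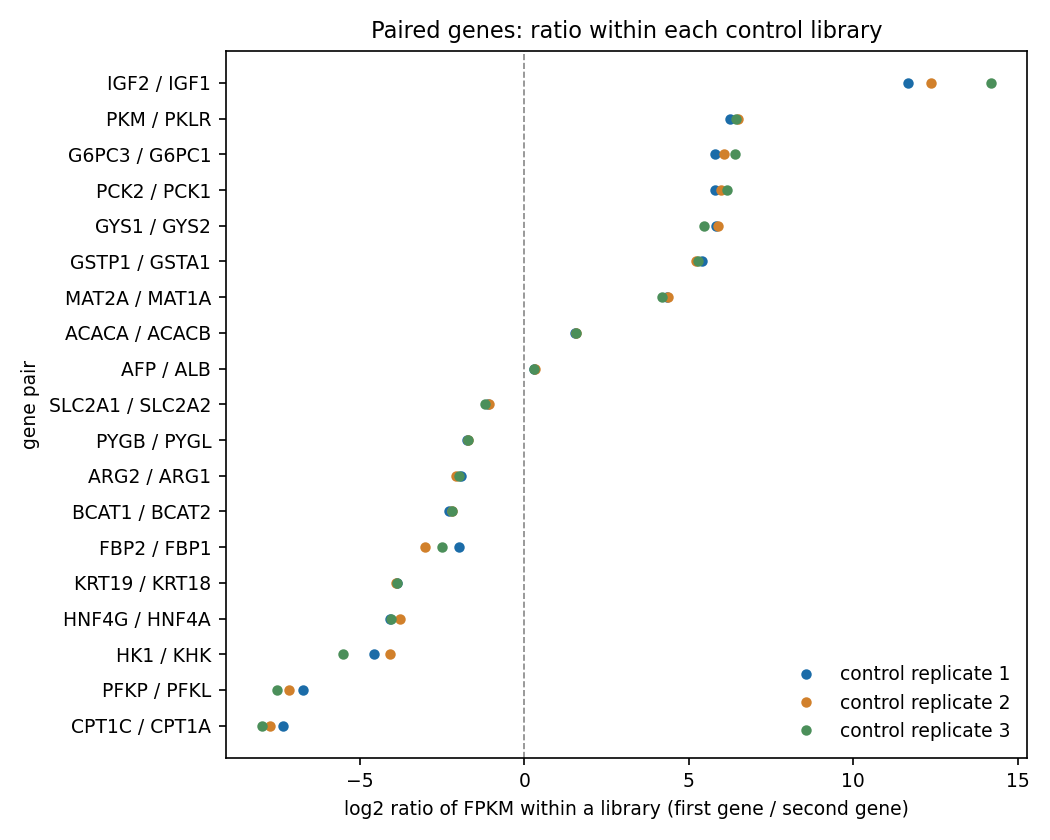
The log2 ratio of FPKM, first gene over second gene, for 19 of the 20 pairs, with 1 point per control library and a dashed line at equal levels. CYP3A7 and CYP3A4, both below 1 FPKM, have no point, and the IGF2 and IGF1 points spread most.

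Cell cycle genes reached at least 1 FPKM in 36 of 37 (median 45.6), against 65.7% of all genes. TUBA1B (1463 ± 17.5 FPKM), MCM7 (219 ± 1.57), PCNA (160.4 ± 1.5) and CDK4 (147 ± 1.64) were high, and CCND2 stood at 0.020 ± 0.010. CDKN2A, which encodes inhibitors of the cell cycle, stood at 93.6, 97.2 and 92.4 FPKM.

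The genes that write, erase and read N6-methyladenosine on RNA all reached at least 1 FPKM, 21 of 21, against 65.7% of all genes. Their median was 23.0 FPKM. Among writers, METTL3, the catalytic subunit, stood at 38.7, 40.6 and 40.8 FPKM, its partner METTL14 at 6.72, 6.66 and 6.85, and WTAP at 56.2 ± 1.91. RBM15 was the lowest at 2.21 ± 0.0513. The eraser ALKBH5 stood at 21.9, 23.4 and 23.6 FPKM and FTO at 7.61, 7.96 and 8.15, so ALKBH5 lay above FTO in each library. Among readers, YTHDF1 (43.0 ± 1.67), YTHDF2 (29.7 ± 0.332) and YTHDF3 (24.6 ± 1.02) lay within a narrow range, and HNRNPA2B1 stood at 416 ± 18.9.

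Virus entry and innate sensing genes were read because Huh-7 is a common host for liver viruses. The hepatitis C virus entry factors CLDN1 (142 ± 0.50 FPKM), SCARB1 (140.2 ± 2.89) and CD81 (86.3 ± 2.22) were abundant, and OCLN stood at 5.55 ± 0.269. Nucleic acid sensing genes reached at least 1 FPKM in 13 of 22, against 65.7% of all genes. IRF3 stood at 73.2 ± 3.47 FPKM and MAVS at 13.8 ± 0.281, whereas RIGI, a sensor of viral RNA, stood at 2.1 ± 0.0929 and TLR3 at 0.183 ± 0.0351. CGAS (0.173 ± 0.0404) and STING1 (0.307 ± 0.0231) were below 1 FPKM, and AIM2 stood at 0.00667 ± 0.0115.

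Receptors of growth factors reached at least 1 FPKM in 18 of 25, near the 65.7% of all genes. Below FGFR4 came ERBB3 (62.4 ± 1.38 FPKM), FGFR3 (55.1 ± 2.09) and ERBB2 (36.3 ± 1.61), with EGFR at 23.5 ± 0.102 and MET at 19.7 ± 0.585. ERBB4 and KDR were listed at 0. Metal and redox genes reached at least 1 FPKM in 30 of 30, against 65.7% of all genes. GPX4, which reduces lipid peroxides, stood at 1069 ± 26.4 FPKM and the plasma selenium carrier SELENOP at 586 ± 12.2, while the cystine transporter SLC7A11 stood at 3.31 ± 0.10. Of the stress genes, ATF4 stood at 357, 348 and 336 FPKM and the chaperone HSPA5 at 252, 250 and 260.

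Markers of cell types were read to check the label of the line. All 10 hepatocyte markers were at least 10 FPKM, against 34.97% of all genes. Their summed level was 8751 to 8957 FPKM per library. The summed level was 6.2 to 6.59 FPKM for 10 stellate cell and fibroblast markers, 4.64 to 5.56 for 9 endothelial, 1.88 to 2.75 for 9 lymphocyte and 0.180 to 0.520 for 6 erythroid markers. It was higher for 10 bile duct markers (303 to 311 FPKM), 10 intestinal (267 to 283), 8 macrophage (222 to 229) and 9 neuronal markers (84.8 to 92.2), where few genes carried most of each sum. Of the endothelial markers, PECAM1 (4.83 ± 0.438) was the single one at 1 FPKM or more, and KDR, TEK and STAB1 were listed at 0. Of the macrophage markers, LYZ, lysozyme, stood at 138 ± 3.98 FPKM and CD68, a lysosomal protein, at 81.5 ± 0.861, while CSF1R and C1QA were listed at 0 and CD163 stood at 0.00333 ± 0.00577. In bulk RNA, fewer cells of a type and less RNA per cell cannot be told apart.

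Some markers of other epithelia were abundant. CDX2, a homeobox factor of intestine, stood at 120.0, 105 and 109 FPKM, and CDH17, a cadherin of intestine, at 93.4, 95.6 and 97.5. VIL1 stood at 31.1 ± 0.24 FPKM and TFF3 at 32.5 ± 2.31, but MUC2 stood at 0.00333 ± 0.00577, CDX1 at 0.020 ± 0.0346 and FABP2 at 0.157 ± 0.0814. The intestinal list reached 1 FPKM in 6 of 10 genes, a share no higher than the 65.7% of all genes. Among bile duct markers, ANXA4 (158 ± 2.15), KRT19 and SOX9 (23.5 ± 0.46) were present, whereas KRT7 stood at 1.45 ± 0.746 and AQP1 at 0.147 ± 0.0764. Of 9 neuronal markers, TUBB3 (84.3 ± 3.45) and SNAP25 (3.68 ± 0.347) reached 1 FPKM, and NEFM was listed at 0.

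Transcript shares were read for the 9618 genes with a mean of at least 1 FPKM and at least 2 transcripts in the tables, which had a median of 5 transcripts each. The transcript with the highest mean FPKM, here the dominant one, held a median of 65.4% of its gene's FPKM (quartiles 46.3% and 86.3%). It held at least 90% in 1931 genes (20.1%) and under 50% in 2848 genes (29.6%). The same transcript was highest in all 3 libraries in 7045 genes (73.2%). That was so for 1931 of 1931 genes at 90% or more and for 855 of the 2848 under 50%. The share tracked the number of transcripts in the annotation, with medians of 90.6% for genes with 2 transcripts, 72.4% for 3 to 5, 51.9% for 6 to 10 and 35.7% for 11 to 20. The dominant transcript was a predicted RefSeq model (XM prefix) in 2134 genes (22.2%), and predicted models held 10.3% ± 0.0565 of the summed FPKM. These shares are model estimates from short reads, so a share can be unsure even where its libraries are close.

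**Figure D5:**
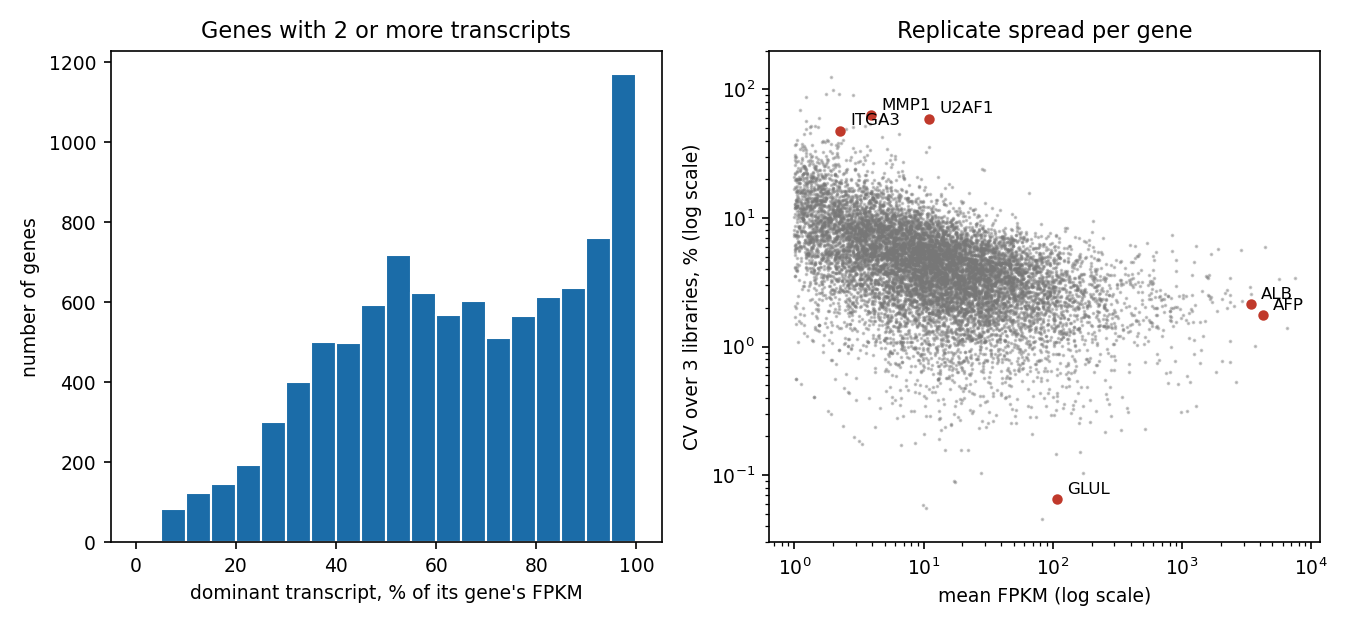
Left, the number of genes by the percent of a gene's FPKM held by its dominant transcript, for 9618 genes with at least 2 transcripts. Right, the coefficient of variation over 3 libraries against mean FPKM, both on log scales, for genes with a mean of at least 1 FPKM; MMP1, U2AF1 and ITGA3 lie high at low levels, and AFP, ALB and GLUL lie low.

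PKM is spliced to an M1 form in muscle and an M2 form in fetal and tumour tissue. NM_002654.6, which encodes M2, held 96.3%, 94.9% and 91.1% of PKM in the libraries, and NM_182471.4 and NM_182470.3, which encode M1, held 0.617% ± 0.0443 and 0.0950% ± 0.165.

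HNF4A is transcribed from an upstream promoter, P2, known from pancreas and fetal liver, and from a downstream promoter, P1, that prevails in adult liver. The 5 transcripts with starts at 44355700 to 44355801 on chromosome 20 (GENCODE release 29, GRCh38) held 86.9% ± 3.25 of HNF4A. The 3 with starts at 44401284 to 44401301 held 3.35% ± 0.898, and a predicted model without a matched start held 9.77% ± 2.71. These shares are over the 9 HNF4A transcripts with values here. Other transcripts of the downstream promoter were not analysed, so its share may be incomplete. NM_175914.4, of the upstream set, alone held 79.1%, 84.1% and 85.1%.

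The insulin receptor INSR has a short form, A, which also binds IGF2 and is the fetal form, and a long form, B, which prevails in adult liver. Form A (NM_001079817.3) held 92.0%, 64.3% and 86.1% of INSR and form B (NM_000208.4) 7.97%, 17.3% and 11%. The share was thus imprecise while the order held in each library. The matched GENCODE transcripts also differ in length, with 8954 nt for form A and 4721 nt for form B. How far this difference set the shares and their order was not tested. For IGF2 itself, NM_001291861.3 held 72.9% ± 2.37 and NM_000612.6 held 24.0% ± 2.66, with starts at 2137290 and 2139389 on the minus strand of chromosome 11.

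Other genes had one stable leading form. FGG gave the gamma-A chain (NM_000509.5) at 91.3% ± 0.387 and the gamma-prime chain (NM_021870.3) at 8.66% ± 0.387. RAC1 (NM_006908.5) held 98.0% ± 0.404 and its tumour-associated splice form RAC1b (NM_018890.4) 1.95% ± 0.404. LMNA gave lamin C (NM_005572.3) at 62.8% ± 1.49 and lamin A (NM_170707.4) at 35.1% ± 0.585. In CDKN2A, NM_058195.3, which encodes p14ARF, held 69.2% ± 1.85; the transcript NM_000077 was not analysed here. SERPINA1 was led by a predicted model, XM_017021370.1, at 86.7% ± 0.396, ahead of NM_000295.5 at 13% ± 0.393. APOB, ALB, AFP and TTR had 1 transcript each.

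Other genes had no clear leading form. FN1, fibronectin, had 28 transcripts, of which the highest held 9.54% ± 0.294. In NUMB, a regulator of Notch signalling, NM_003744.5 held 31.5%, 48.1% and 16.7% and NM_001005743.1 held 38.3%, 4.31% and 48.6%. PPARA and STAT3 also had leading transcripts whose order changed between libraries: NM_001362872.2 held 40.9%, 51.0% and 10.7% of PPARA, and NM_139276.3 held 18.8%, 30.3% and 28.0% of STAT3.

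Replicates were close. The coefficient of variation (CV) is the SD as a percent of the mean. Over 3 libraries its median was 4.23% for genes with a mean of at least 1 FPKM. The counting value, the inverse square root of the mean count as a percent, had a median of 3.81%. Under counting alone, a CV from 3 libraries falls below that value more often than above it. Setting these medians side by side therefore understates the excess over counting. The median CV was 6.05% at 1 to 10 FPKM, 3.37% at 10 to 100, 2.22% at 100 to 1000 and 2.17% at 1000 or more. The median counting values of these classes were 6.0%, 2.84%, 1.35% and 0.630%. A CV of at least 20% was found in 246 genes, 240 of them under 10 FPKM. The biological coefficient of variation, which edgeR estimates beyond counting noise, was 2.76%. Replicate 1 differed more from the other libraries (chi-square per degree of freedom 2.36 and 2.31) than these from each other (1.66), and without it the biological coefficient of variation was 1.90%. In replicate 1 the 20% of genes with the shortest transcripts stood at a median of 1.012 times the other libraries and the 20% with the longest at 0.976 times. In replicate 2 these values were 0.989 and 1.02. The part of transcript length in the spread was not tested.

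Among 11002 genes with a mean count of at least 100 and a mean of at least 1 FPKM, the largest CVs were often in readthrough genes, whose joined names mark a transcript that spans neighbouring genes. PHOSPHO2-KLHL23 was listed at 0, 2.03 and 3.20 FPKM. Joined names made up 5 of the 10 largest CVs and 11 of the 100 largest, against 34 (0.309%) of all. U2AF1, a splicing factor with a near-identical copy, stood at 3.93, 16.8 and 12.2 FPKM. SULT1A4 stood at 7.74, 15.4 and 10.1 FPKM and its near-identical copy SULT1A3 at 13.9, 7.05 and 10.6, in the opposite order of libraries.

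A few genes not known for a near-identical copy also varied. MMP1, the interstitial collagenase, stood at 5.78, 4.81 and 1.1 FPKM from 214, 179 and 41 estimated counts. ITGA3, an integrin subunit, stood at 2.41, 3.22 and 1.1 from 218, 294 and 97 counts. FOSL1, a subunit of the AP-1 transcription factor, stood at 3.46, 5.26 and 2.76. Replicate 3 was the lowest library for all 3. Their CVs (63.4%, 47.7% and 33.7%) lay above the counting values of 8.31%, 7.02% and 9.27%. RSC1A1, with a CV of 36.1%, stood at 2.53, 5.07 and 3.27 FPKM and was lowest in replicate 1. Its estimated counts for 1 transcript (110.81, 222.49 and 143.77) were not whole. Reads may thus be shared with another entry, and the part of this in its spread was not tested. FOSL1 was added after values were seen, so the shared lowest library may come from the choice of genes.

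At the other end, of 843 genes with a mean of at least 100 FPKM, GLUL had the smallest CV at 0.0650%, with 107.73, 107.80 and 107.66 FPKM. It was followed by the clathrin light chain CLTA (172.47, 172.17 and 172.49 FPKM), the citrate synthase CS (106.36, 106.24 and 106.05) and the proteasome subunit PSMD2 (162.02, 161.69 and 162.17). These CVs lie below their counting values, 1.2% for GLUL, and such values are found when many genes are ranked on 3 libraries. Reference genes spanned a wide range: GAPDH varied by 2.57% and ACTB by 1.11%, TBP stood at 15.9, 15.4 and 16.0 FPKM, and HPRT1 at 5.59, 6.34 and 7.09.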

How the data were processed

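Libraries of mRNA, made with an mRNA kit per the labels' protocols, were read for the 3 control samples of Huh-7. Each RefSeq transcript has an estimated count, deposited by the authors without scaling, and a deposited FPKM value, per the file headers. RSEM 1.2.8, Bowtie2 2.2.5, HISAT2 2.1.0 and GRCh38.p13 are named in the submitters' processing notes; what each did is not given in the sources used here. Short transcripts have few possible read positions, so their FPKM depends strongly on the length model.

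Values of the 80668 transcripts were added up by Entrez identifier into 18030 genes, and 17881 symbols were matched. Mitochondrially encoded genes were not analysed here, nor were CLEC4G, C1QB, VSIG4, MS4A1, HBB, HBG1, HBG2, STMN2, NDUFA4 and CTAG1B. CPM was computed from estimated counts. The biological coefficient of variation came from edgeR 4.0.16 (R 4.3.3; TMM, minimum count 10, intercept alone, counts rounded), tested on simulated data. Figures were drawn with matplotlib 3.10.9. Promoters (250 bases before to 50 after the start) were RefSeq's on GRCh38.p14, matched by symbol for 9736 of 11844 genes with a mean of at least 1 FPKM. Positions and exons came from GENCODE release 29.

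Genes named were the 30 most abundant, listed members, listed pairs, a transcript panel and the extremes of spread. Members and lists were chosen with earlier results of these data known. The motifs other than TATAAA, the ribosomal, ferritin and MTRNR2L groups, the gene clusters, the joined names, the length values and FOSL1 and SULT1A3 were added after values were seen. A planned coding length was replaced by effective length, and protein features were not analysed here. Alternatives were other thresholds, units, scalings and leaving out each library. Values of some genes, and 4 of the listed pairs, are not reported here.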

Additional observations from a re-analysis of the deposited data

How the results depend on the processing

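Scaling by length set how concentrated the transcriptome looked. By estimated counts the 10, 100 and 1000 most abundant genes held 6.12%, 19.5% and 51.1%, and 946 genes held 50% of the total. With genes at a mean of at least 10 FPKM the median share of the dominant transcript was 72.9% and the median CV 3.20%. At least 80% of a gene lay in 1 transcript in 3180 genes. Leaving out each library in turn gave 11718 to 11723 genes at 1 FPKM or more in every library, 8.67% to 8.78%, 31.1% to 31.4% and 65.6% to 65.8% in the leading genes, and 365 to 372 genes for 50%. It gave a dominant share of 65.5% to 65.9%, 1970 to 1988 genes at 90% or more and 7712 to 7741 with the same dominant transcript. The median CV was 2.98% to 3.65% and the biological coefficient of variation 1.90% to 3.12%, with the lowest of both without replicate 1. Fewer libraries make agreement easier by construction. At a threshold of 5 FPKM, 5 of 37 lists held fewer members by over 1.5 times, among them stellate, endothelial and lymphocyte markers, with none left. No paired analysis was possible because 1 group is described and no test was made. Counts limit low genes: at 1 to 10 FPKM the median counting value is near 6.0%.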
